A study of Mus musculus with 18 samples.

Results

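Genes that move and store zinc were followed from normal mouse prostate to tumours of TRAMP mice, a transgenic model of prostate adenocarcinoma. They are the metallothionein genes Mt1 and Mt2, the exporter-family genes Slc30a1, Slc30a2, Slc30a4 and Slc30a5, and the importer-family genes Slc39a1, Slc39a4, Slc39a8 and Slc39a14. These 10 genes were taken by name, of 18193 genes that a probe set names alone, and are read by 16 of the 45101 probe sets on the array. The labels describe 9 samples of normal prostate, taken from the ventral and dorsolateral lobes, and 9 TRAMP tumours. In TRAMP mice a probasin promoter drives viral T antigens in the prostate epithelium. Strain, age and genotype are not given in the labels used here, and they do not say whether each sample is a separate animal. The p-values therefore measure the spread among samples, which may be technical. Total RNA of each sample was read on 1 Affymetrix array, and the number of arrays limits the precision.

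Prostate epithelium is known for holding far more zinc than most tissues. The zinc slows the oxidation of citrate, so that citrate is secreted rather than burnt, and loss of this zinc is a known trait of human prostate cancer. Proteins of the Slc39 (ZIP) family carry zinc into the cytosol, and those of the Slc30 (ZnT) family carry it out of the cytosol, across the cell surface or into vesicles. Metallothioneins are small cysteine-rich proteins that bind zinc and copper. The zinc-sensing factor Mtf1 switches on Mt1, Mt2 and Slc30a1 through short metal response elements in their promoters.

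Mt1, Mt2 and the cell-surface zinc exporter gene Slc30a1 were lower in the tumours, and none of the 10 genes was called higher. Mt1 was 3.26-fold lower, Mt2 2.09-fold lower and Slc30a1 1.83-fold lower on the scale of log2(signal + 16), which understates the change of dim genes. Slc30a2 did not pass a filter on dim probe sets, which asks for a signal above the 40th percentile of the array on at least 9 of 18 arrays. Of the 9 genes that did, 3 were lower, 0 were higher and 6 did not pass the test (limma over 12793 genes, Benjamini-Hochberg adjusted p under 0.05). Over all 12793 genes 24% were called, 12.7% as lower and 11.3% as higher. Of the genes called 52.9% were lower, and 64.7% were when arrays were first centred on their 75th percentile. The median log2 difference of the 9 genes was -0.42, against -0.01 over all genes. In none of the 9 did all tumours lie below or all above the normal prostates, as they did for 0.93% and 1.45% of all genes.

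The 3 genes that fell are the ones whose promoters are shown, as the 250 bases before the RefSeq transcript start in the build GRCm38.p6, all on the plus strand. Capitals mark the letters TGCACNC or TGCGCNC, the cores of the metal response element, found on either strand. The windows are chr8:94178839-94179088 for Mt1, chr8:94172368-94172617 for Mt2 and chr1:191906531-191906780 for Slc30a1.
Mt1: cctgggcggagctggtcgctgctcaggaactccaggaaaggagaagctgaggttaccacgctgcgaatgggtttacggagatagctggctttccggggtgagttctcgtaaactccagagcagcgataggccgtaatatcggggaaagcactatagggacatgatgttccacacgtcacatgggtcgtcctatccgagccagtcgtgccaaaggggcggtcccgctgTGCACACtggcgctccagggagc
Mt2: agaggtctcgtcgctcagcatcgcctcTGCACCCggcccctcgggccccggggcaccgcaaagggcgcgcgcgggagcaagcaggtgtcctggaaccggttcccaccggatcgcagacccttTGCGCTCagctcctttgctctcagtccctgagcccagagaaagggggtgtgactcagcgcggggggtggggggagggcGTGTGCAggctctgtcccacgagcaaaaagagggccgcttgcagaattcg
Slc30a1: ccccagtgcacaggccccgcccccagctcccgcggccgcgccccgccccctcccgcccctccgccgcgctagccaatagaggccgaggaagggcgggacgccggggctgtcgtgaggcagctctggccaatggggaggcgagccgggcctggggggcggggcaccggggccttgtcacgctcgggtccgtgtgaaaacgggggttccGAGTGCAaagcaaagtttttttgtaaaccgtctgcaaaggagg

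The Mt2 window held 3 cores, and 1.26% of 32851 mouse promoter windows of this length hold at least 3. Mt1 and Slc30a1 held 1 each, as 21.4% of windows do at least. When the 50 bases after the transcript start were read as well, Mt1 held 3, Mt2 4 and Slc30a1 2. At least 2 are found in 7.11% and at least 3 in 1.97% of such windows. The Mt1 window shown thus holds only 1 of the 3 cores found around this start, and bases further on were not read. The Mt2 and Mt1 starts lie 6471 bases apart on the same chromosome. RefSeq windows were at hand for 8 of the 10 genes. Among genes that were not called, Slc30a2 and Slc30a4 held 2 cores, Slc30a5 held 1 and Slc39a1 held 0 before the start, and Slc39a8 held 0 or 1 at its 2 starts. These matches describe the letters of the windows. Neither binding of Mtf1 nor the start used in prostate was measured.

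The brighter Mt1 probe set and that of Mt2 stood among the brightest of the array. Mt1 lay above at least 94.7% of probe sets on every array, the lowest being tumour 9, and Mt2 above at least 98.2%. On normal prostate arrays the brighter Mt1 probe set measured 12.99 at the lowest, 14.08 at the median and 15.12 at the highest. On tumour arrays it measured 11.50, 12.22 and 13.54. Of 9 tumours 7 lay below the lowest normal prostate, and tumours 3 and 5, at 13.06 and 13.54, lay within the normal range. The lowest were tumours 9 and 1, at 11.50 and 11.78. Mt1 fell by 1.71 ± 0.310 SE (limma adjusted p = 0.000951), with means of 14.08 ± 0.741 (SD, n = 9) in normal prostate and 12.37 ± 0.638 (SD, n = 9) in tumours. This probe set is of the kind that can match several transcripts. The other Mt1 probe set was far dimmer, under the 40th percentile on 2 normal and 5 tumour arrays. It measured 6.54 to 9.50 in normal prostate and 5.86 to 8.14 in tumours and did not pass over 22540 probe sets (log2 difference -0.93 ± 0.395 SE, limma adjusted p = 0.0986). Over those probe sets 21.3% were called.

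Mt2, the neighbour of Mt1, ranged from 13.08 to 15.12 in normal prostate with a median of 14.13. In tumours it ranged from 12.71 to 13.61 with a median of 13.08. The tumours were tightly grouped, with an SD of 0.274 against 0.701 in normal prostate. The groups overlapped: 4 of 9 tumours lay below the lowest normal prostate, and tumour 5 was the highest of the tumours at 13.61. Mt2 fell by 1.06 ± 0.244 SE (limma adjusted p = 0.00452). Normal prostates 7 and 4 were the highest for both genes, at 15.12 and 14.96 for Mt1 and 15.12 and 14.83 for Mt2. Normal prostates 3 and 9 were the lowest, at 12.99 and 13.13 for Mt1 and 13.11 and 13.08 for Mt2.

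**Figure D1:**
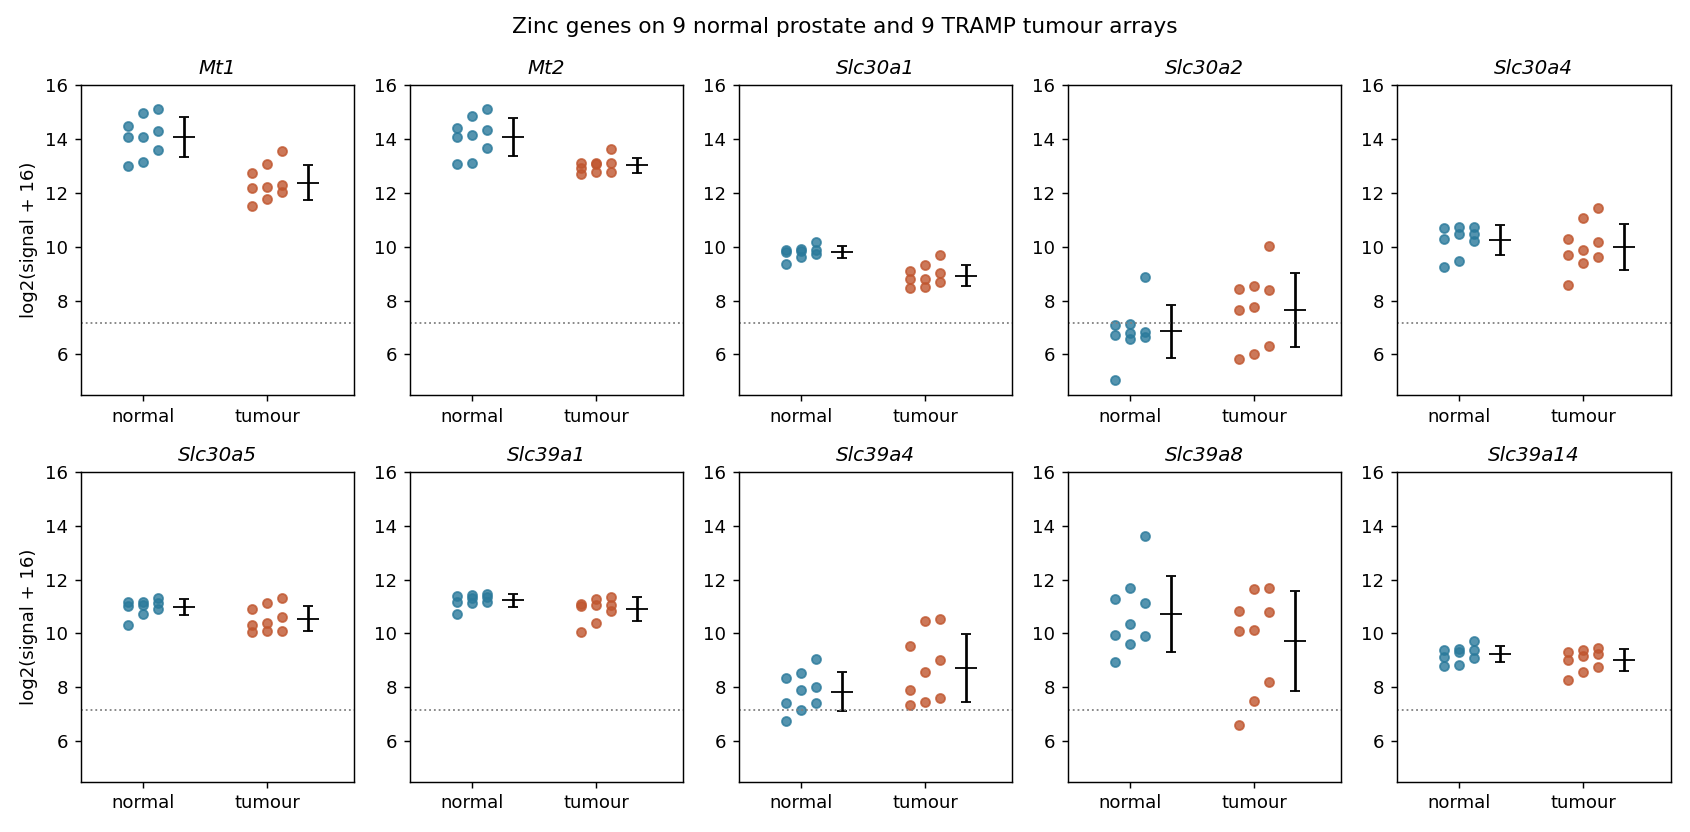
Level of each gene on the scale log2(signal + 16), for the probe set that represents it, on 9 normal prostate arrays (blue) and 9 tumour arrays (orange). Each point is an array, the bars are the mean and SD, and the dotted line is the median over arrays of the 40th percentile. Mt1 falls from a mean of 14.08 to 12.37, while Slc39a8 spreads from 6.60 to 11.67 in tumours.

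The difference between the Mt1 and Mt2 signals varied little over the normal arrays and more over the tumours. Their log2 signals differed within an array by -0.12 to 0.13 on the 9 normal arrays. On tumour arrays Mt1 minus Mt2 ran from -1.43 in tumour 9 to 0.30 in tumour 3, and 7 of 9 tumours lay below the lowest normal array. The mean of this difference shifted by -0.64 from normal prostate to tumour (n = 9 each). The quantity was chosen after its values were seen and is a description with no test. Only its change across arrays can be read, since the levels of different probe sets cannot be compared. Whether the Mt1 and Mt2 probe sets pick up each other's transcripts was not tested.

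**Figure D2:**
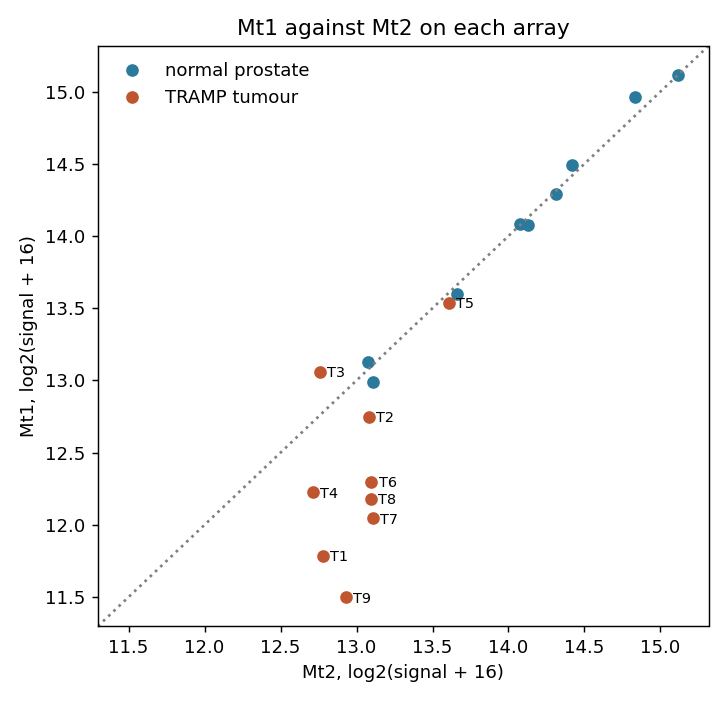
Mt1 against Mt2 on each array, both as log2(signal + 16), with normal prostate in blue and tumours in orange, and the tumours labelled T1 to T9. The dotted line marks equal signals. The 9 normal arrays follow it, within -0.12 to 0.13, and tumour 9 lies furthest below it, at -1.43.

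Among the exporters only Slc30a1 was called. Its protein sits in the cell membrane and removes zinc from the cell. The brighter probe set measured 9.34, 9.85 and 10.16 in normal prostate at the lowest, median and highest. In tumours it measured 8.47, 8.79 and 9.68. Of 9 tumours 8 lay below every normal prostate, and tumour 4, at 9.68, lay within the normal range. Slc30a1 fell by 0.87 ± 0.160 SE (limma adjusted p = 0.00101). The second probe set also fell (-0.97 ± 0.273 SE, limma adjusted p = 0.0167 over 22540 probe sets). It lost its call on bright spike arrays alone (-0.77, limma adjusted p = 0.2) and without the 6 arrays described further on (-0.88, limma adjusted p = 0.0783), where the first kept its call. It was dim on 7 of 9 tumour arrays, and with dim values raised to the 40th percentile its difference was -0.33.

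Slc30a5, an exporter that loads zinc into the early secretory pathway, was 10.32 to 11.30 in normal prostate and 10.05 to 11.31 in tumours. It did not pass (log2 difference -0.42 ± 0.188 SE, limma adjusted p = 0.11). Tumours 1, 6, 8 and 9 lay below every normal prostate, while tumours 5 and 3 measured 11.31 and 11.14. Without normal prostate 9 the difference was -0.50 (limma adjusted p = 0.049) and without tumour 5 it was -0.52 (limma adjusted p = 0.039). Slc30a4, a zinc transporter of vesicles, had a wider spread in tumours, from 8.58 in tumour 2 to 11.42 in tumour 5, than in normal prostate, at 9.24 to 10.74. Its difference was -0.25, with a limma 95% interval of -0.92 to 0.43 (limma adjusted p = 0.61). Without tumour 5 it was -0.42 and without tumour 2 it was -0.07.

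Slc30a2, which loads zinc into secretory vesicles, was dim on 7 of 9 normal arrays and 3 of 9 tumour arrays. On the normal arrays its median was 6.80 and its highest value 8.88, on normal prostate 9. In tumours it ranged from 5.85 to 10.02 with a median of 7.75, and tumour 7 was the highest. Tested without the filter it did not pass (log2 difference 0.80 ± 0.525 SE, limma adjusted p = 0.322 over 18193 genes, of which 16.4% were called).

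**Figure D3:**
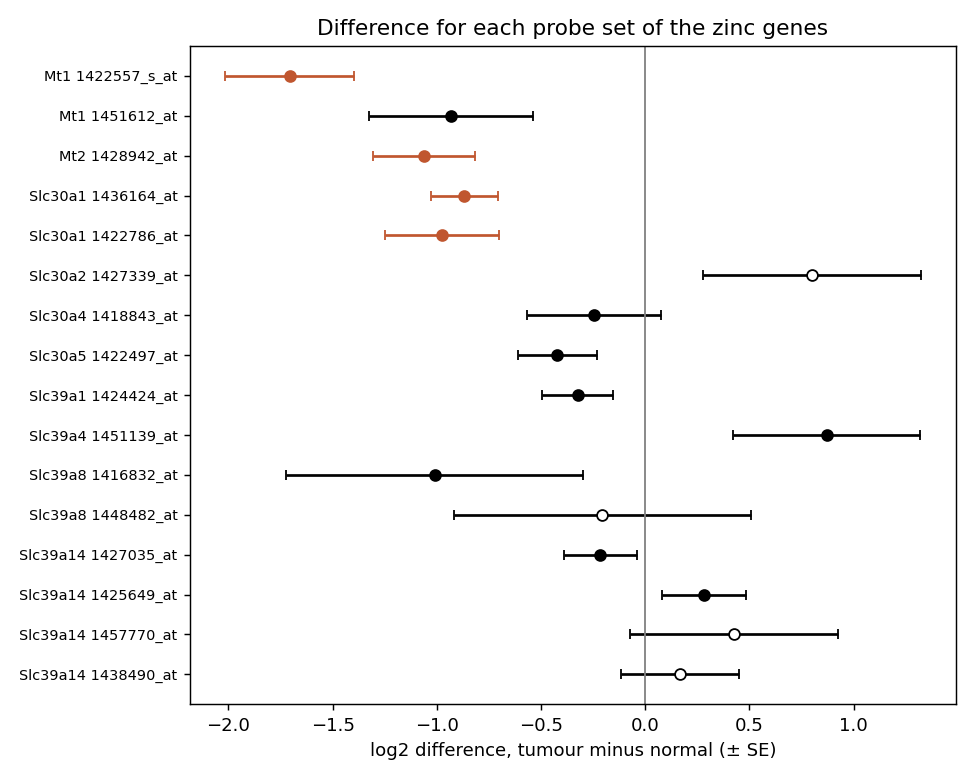
Difference between tumour and normal prostate for each of the 16 probe sets, in log2 units with SE bars. Orange marks an adjusted p under 0.05 over 22540 probe sets, and open points did not pass the filter on dim values. The brighter Mt1 probe set (-1.71), that of Mt2 (-1.06) and both of Slc30a1 (-0.87 and -0.97) were called.

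No importer among the members was called. Slc39a1, which takes zinc up across the cell surface, varied little. It measured 10.71, 11.31 and 11.46 in normal prostate at the lowest, median and highest, and 10.04, 11.05 and 11.36 in tumours. Tumours 9 and 1, at 10.04 and 10.37, were the only ones below the lowest normal prostate. The difference was -0.32, with a limma 95% interval of -0.68 to 0.03 (limma adjusted p = 0.172). Slc39a14, an importer of zinc and other metals, measured 8.79 to 9.71 in normal prostate and 8.26 to 9.46 in tumours. Its brighter probe set differed by -0.22 (limma adjusted p = 0.384) and its second by 0.28 (limma adjusted p = 0.339 over probe sets), so the probe sets had opposite signs and neither passed. The remaining probe sets differed by 0.42 and 0.17. Neither passed the filter, and the latter was dim on all 18 arrays.

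Of the 4 importers, Slc39a4 and Slc39a8 had the widest ranges in tumours. Slc39a4, the importer known from zinc uptake in the gut, measured 6.73 to 9.04 in normal prostate and 7.33 to 10.52 in tumours. Tumours 6, 8 and 7 were the highest, at 10.52, 10.47 and 9.53, followed by tumour 3 at 9.02 and tumour 5 at 8.57. The remaining tumours lay between 7.33 and 7.92. The difference of 0.87 ± 0.451 SE did not pass (limma adjusted p = 0.167). Only 1 of 19 alternative fits called it higher, that with arrays weighted by their quality (1.25, limma adjusted p = 0.0416). That fit called 3809 of all genes, against 3067 in the main fit. With tumours 6 and 8 averaged as 1 sample the difference was 0.65 (limma adjusted p = 0.28). Slc39a8, which imports zinc and manganese, was 13.63 on normal prostate 9, with the other normal arrays at 8.94 to 11.69. In tumours it ran from 6.60 in tumour 9, 7.48 in tumour 4 and 8.18 in tumour 2 up to 11.67 and 11.64 in tumours 6 and 8. Its difference of -1.01 had a limma 95% interval of -2.51 to 0.49 (limma adjusted p = 0.319). Without tumour 9 the difference was -0.62 and without normal prostate 9 it was -0.65. Its dim second probe set also had its highest value, 11.43, on normal prostate 9.

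Markers of neighbouring tissue also varied over the arrays. A seminal vesicle score, the mean log2 signal of 6 genes, reached 15.08, 15.57 and 14.98 in tumours 3, 5 and 7. Tumours 6 and 8 had scores of 10.83 and 10.85, and normal prostate 9 had 12.09. No other array exceeded 8.34. Those 5 tumours were the 5 highest for Slc39a4, and the order among them differed between gene and score. Normal arrays did not follow this: normal prostate 9 had Slc39a4 at 7.91, the normal median, and normal prostate 8, with a score of 5.87, had it at 9.04, above tumours 3 and 5. Tumours 6 and 8 were the most alike of the tumours (r = 0.96 over kept probe sets, next 0.923). A prostate secretory score over 12 genes was 11.2 to 12.7 on normal prostates 1 to 8, 7.51 on normal prostate 9 and 5.97 to 9.84 in tumours. Of its 9 genes that passed the filter 7 were lower. Mmp7 differed by 0.91 and Spinkl, which did not pass the filter, by 2.84, neither being called. Spinkl counts in the score, was dim on all 9 normal arrays and ran from 5.25 to 15.17 in tumours. How far it raised the secretory score of single tumours was not tested. Tumours 3, 5, 6, 7 and 8, those high in the seminal vesicle score, had secretory scores of 8.37 to 9.84. The remaining tumours had 5.97 to 7.29. Adipocyte markers shifted the most, with a score of 6.61 to 13.67 in normal prostate and 6.87 to 10.36 in tumours and 5 of 6 genes lower. Normal prostate 7, the highest for Mt1 and Mt2, had the lowest adipocyte score of all 18 arrays. Luminal markers differed by -1.38 in their score with 1 of 8 genes lower. Scores were higher in tumours for proliferation (3.50, 6 of 6 genes higher), macrophages (1.01, 4 of 10) and fibroblasts (0.891, 3 of 7). So were those for seminal vesicle (3.43, 1 of 3) and neuroendocrine markers (1.48, 2 of 3), where 11.3% of all genes were higher. The part of these tissues in the zinc gene differences was not tested beyond the fits given next. In bulk RNA, fewer cells of a type and less RNA per cell cannot be told apart. Poly-A spike controls split the arrays into 11 with bright spikes, 6 of them normal prostate, and 7 with dim spikes, 3 of them normal prostate. The 3' to 5' actin ratio, which grows as RNA degrades, ran from 0.31 to 2.48 (log2) in normal prostate, with a median of 1.71, and from 0.46 to 2.18 in tumours, with a median of 0.952. Of the arrays named for Mt1 and Mt2, normal prostates 7 and 4 had high ratios (2.48 and 2.30), normal prostate 9 the lowest (0.31) and tumour 5 the highest of the tumours (2.18), while normal prostate 3 was at the normal median.

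How many zinc genes were lower in the tumours varied with the arrays left out for their seminal vesicle score. Without tumours 3, 5 and 7, whose scores lay above the widest gap, 4 of the 9 genes were lower and 0 higher, where 15.1% of all genes were lower. The gene added was Slc30a5 (-0.71, limma adjusted p = 0.00383), and Slc39a4 differed by 0.71 (limma adjusted p = 0.343). A further comparison left out all 6 arrays with a score over 10. That comparison, added after the scores were seen, set 8 normal prostates against tumours 1, 2, 4 and 9. In it 8 of the 9 genes were lower and 0 higher, where 20.8% of all genes were lower and 38% were called in either direction. Mt1 fell by 2.14, Mt2 by 1.33 and Slc30a1 by 0.81 (limma adjusted p = 0.000848, 0.00505 and 0.0106). Slc39a8 fell by 2.27 (limma adjusted p = 0.0124), Slc30a4 by 0.88 (0.0338), Slc30a5 by 0.71 (0.00273), Slc39a1 by 0.71 (0.00992) and Slc39a14 by 0.65 (0.0147). Slc39a4 was the exception, and its difference changed sign, to -0.25 (limma adjusted p = 0.627). The 4 tumours left include 1, 4 and 9, whose neuroendocrine scores of 10.6, 9.29 and 10.98 stood above 7.09 or less on the other tumours. Which of the omitted tissue and the remaining tumours moved the calls cannot be told apart.

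**Figure D4:**
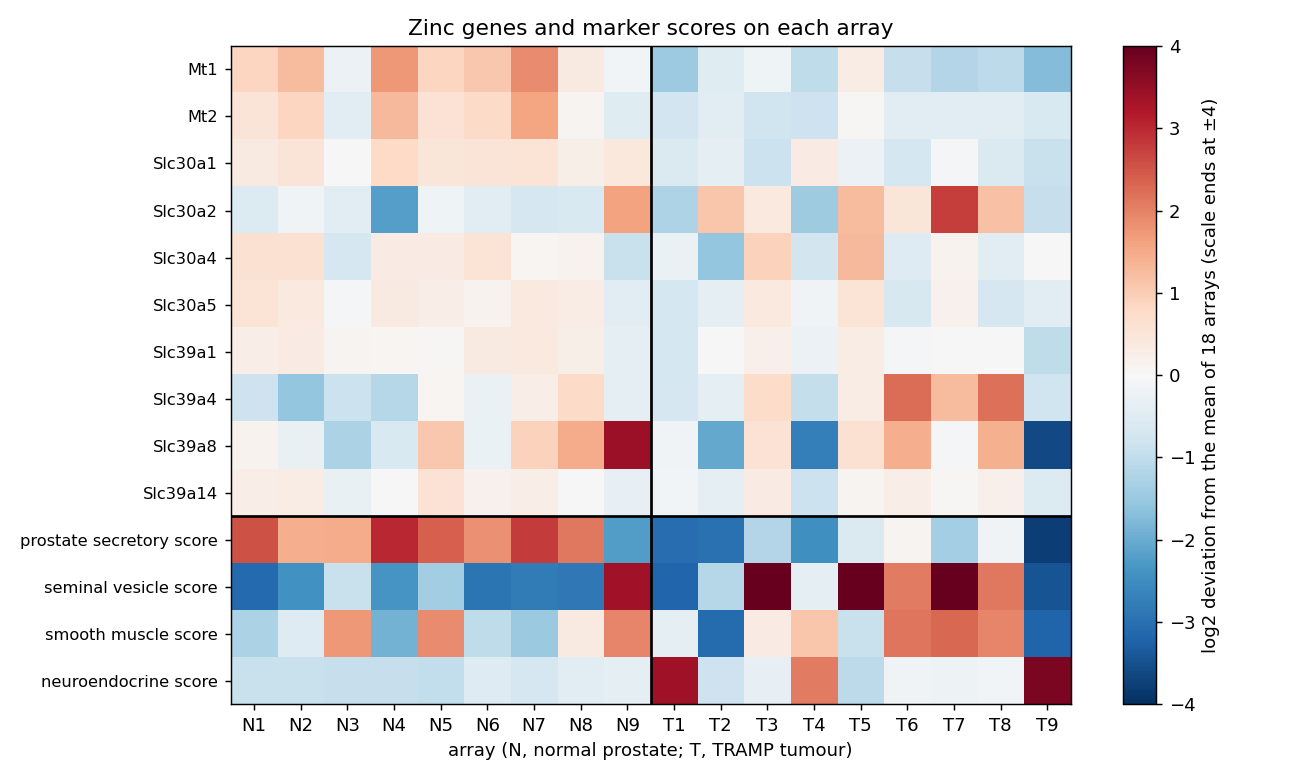
Deviation of each gene, and of 4 marker scores, from its mean over 18 arrays, in log2 units, for normal prostates N1 to N9 and tumours T1 to T9. Colours end at ±4. Normal prostate 9 is high for Slc39a8 (13.63) and for the seminal vesicle score (12.09), and Slc39a4 is highest on T6 and T8 (10.52 and 10.47).

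The calls of the 3 lower genes were also read against the spike and secretory differences. Within arrays of bright spikes Mt1 differed by -1.48, Mt2 by -1.16 and Slc30a1 by -0.79 (limma adjusted p = 0.0219, 0.0196 and 0.0309), where 8.81% of genes were lower. Within arrays of dim spikes, 3 against 4, they differed by -1.94, -0.89 and -0.96, and limma called 0 of 12793 genes there, with 1645 at an unadjusted p under 0.05. With the actin ratio as a covariate all 3 were called (-1.24, -0.71 and -0.86, limma adjusted p = 0.00652, 0.0367 and 0.00652), and so were 12.8% of all genes. With the prostate secretory score as a covariate none was (-0.80, -0.33 and -0.82, limma adjusted p = 0.393, 0.687 and 0.141). In that fit 78 of all genes were called, 0.61%. The score lay between 5.97 and 9.84 in tumours and above 11 on 8 of 9 normal arrays, so it and the groups are hard to tell apart.

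Of the other zinc genes, a list of 19 from the same families with Mtf1, 14 passed the filter. Of these 4 were lower, where 12.7% of all genes were, 0 were higher and the median was -0.39. The 4 were all of the Slc39 family. Slc39a11 fell from 10.75 ± 0.460 to 9.45 ± 0.473 (-1.31 ± 0.217 SE, limma adjusted p = 0.000474). Slc39a13, which works in the secretory pathway, fell by 0.85 (limma adjusted p = 0.00417), Slc39a7, which releases zinc from the endoplasmic reticulum, by 0.84 (0.029) and Slc39a9 by 0.79 (0.0303). With each of 18 arrays left out in turn Slc39a11 and Slc39a13 kept their calls in every fit, Slc39a7 lost its call in 5 and Slc39a9 in 8. Without normal prostate 7, tumour 1 or tumour 2 both lost theirs, so that 2 were called. Without normal prostate 6 both lost theirs too, and Slc30a6 was called. Slc39a9 was not called on bright spike arrays alone, with the replicate number as a block or with tumours 6 and 8 averaged. Slc39a7 was not called when probe sets that can match several transcripts were left out. With the actin ratio as a covariate 2 were called, Slc39a11 and Slc39a13, and with the prostate secretory score 0. Mtf1 itself went from 9.002 ± 0.124 to 8.92 ± 0.321 and did not pass (limma adjusted p = 0.7). It was called lower in the comparison without the 6 arrays, as were Slc30a6 and Slc30a7. Mt3, Mt4, Slc30a8, Slc39a2 and Slc39a12 did not pass the filter.

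**Figure D5:**
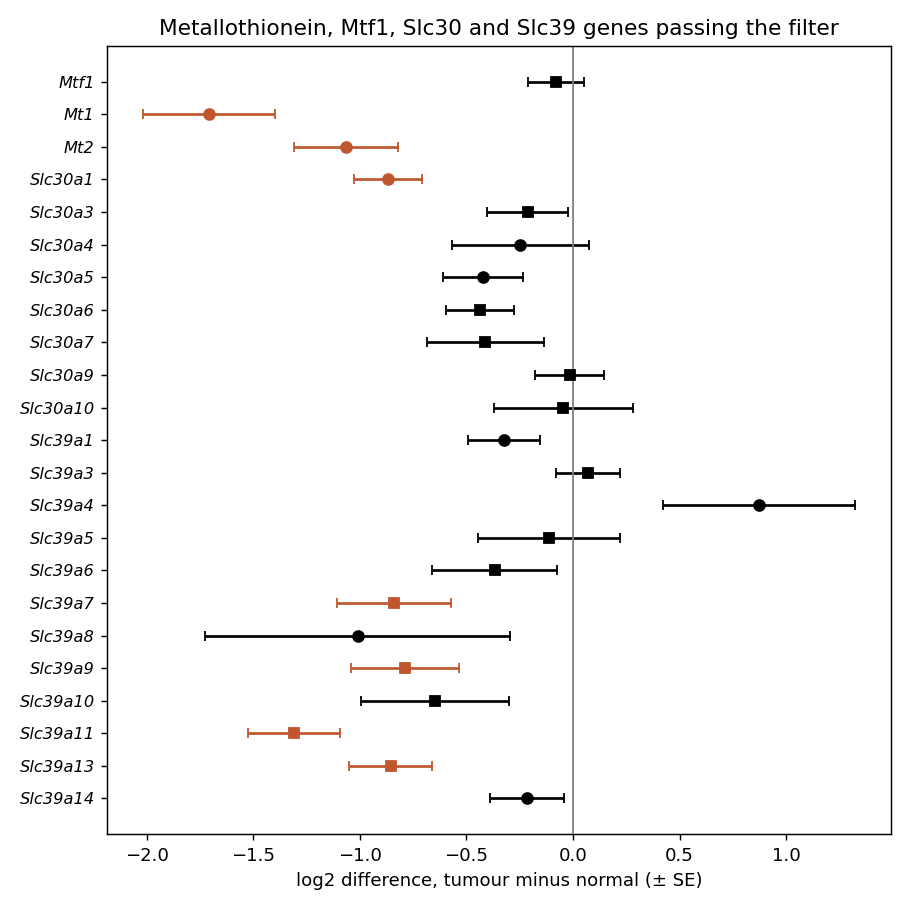
Difference between tumour and normal prostate, in log2 units with SE bars, for the 23 metallothionein, Mtf1, Slc30 and Slc39 genes that passed the filter. Circles are the 9 genes described first, squares the 14 others, and orange marks an adjusted p under 0.05 over 12793 genes. All 7 orange points lie below 0, from -0.79 for Slc39a9 to -1.71 for Mt1. Over all 12793 genes 12.7% were called lower and 11.3% higher.

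Genes of citrate handling, iron and copper transport and hormone response gave context. Of 7 citrate genes 3 were lower and 0 higher, with a median of -0.43. Slc25a1, the mitochondrial citrate exporter, fell by 1.10 (limma adjusted p = 0.000585), the cytosolic aconitase gene Aco1 fell by 0.75 (0.0233) and Acly, which splits citrate for lipid synthesis, fell by 0.49 (0.0497). Of 12 iron and copper genes 3 were lower and 0 higher (median -0.15). The metalloreductase family gene Steap1 fell by 1.51, the copper importer gene Slc31a1 fell by 1.16 and the iron importer gene Slc11a2 fell by 0.94 (limma adjusted p = 0.0154, 0.0285 and 0.0361). Of 10 glucocorticoid-responsive genes, a class to which the metallothioneins belong, 3 were lower and 0 higher (median -0.46). The rest were not called and ran from -0.92 for Pdk4 to 0.20 for Cebpd. Whether glucocorticoid response has a part in the metallothionein differences was not tested. Fkbp5, a co-chaperone of steroid receptors, fell by 1.51 (limma adjusted p = 0.00208), Tsc22d3, whose product is an anti-inflammatory leucine zipper protein, fell by 1.30 (0.00447) and the transcription factor gene Zbtb16 fell by 1.21 (0.0219). Of 10 acute-phase genes 1 was higher and 2 were lower (median -0.21). The cytokine signal inhibitor Socs3 rose by 1.11 (0.0307), the haptoglobin gene Hp fell by 3.36 (0.0319) and the interleukin receptor gene Il1r1 fell by 1.72 (0.0102). All of these shares are to be read against 24% of all genes.

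Mt1 and Mt2 rose and fell together over the normal arrays (Pearson r = 0.996, Spearman rho = 0.967 over 9 arrays, a description with no test). Over the 9 tumours r was 0.534 and rho 0.2, and without tumour 5, the highest for both, r was -0.0409. Tumour 3, next highest for Mt1 at 13.06, was next to lowest for Mt2 at 12.76. With group means removed, the genes most like Mt1 over 18 arrays, of all 12793, were Srp9, Slc35e1 and Npc2 (r = 0.908, 0.893 and 0.878), and those most like Mt2 were Gchfr, Lipg and Afg3l2 (0.897, 0.88 and 0.861). For Slc30a1 they were Drc3, Nrbf2 and Nmnat3 (0.773, 0.734 and 0.697). The vesicle exporters Slc30a4 and Slc30a5 had r = 0.758 with each other, and the importers Slc39a4 and Slc39a8 had r = 0.731. Nearest to Slc30a2 were Snx1, Nlrx1 and Zfp91 (0.84, 0.814 and 0.8), to Slc30a4 Gspt2, Man1c1 and Odr4 (0.949, 0.92 and 0.917), and to Slc30a5 Sec23b, Slc17a5 and Kif16b (0.92, 0.918 and 0.909). Among the importers, nearest to Slc39a1 were B4galt1, Spint2 and Birc3 (0.951, 0.932 and 0.931), to Slc39a4 Ltbr, Mast3 and Lrrc14 (0.941, 0.927 and 0.914), to Slc39a8 Galt, Tmem37 and Adck5 (0.9, 0.864 and 0.857), and to Slc39a14 Mep1a, Bcorl1 and Gatb (0.894, 0.893 and 0.853). The nearest genes were picked as the highest of 12793 genes over 18 arrays, so their r is high by selection, and none was tested. Their Spearman rho ran from 0.62 for Nmnat3 to 0.942 for Mast3. All these values share the same arrays and their tissue make-up.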

How the data were processed

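Per the labels' protocols, RNA of 9 normal prostates and 9 TRAMP tumours was isolated with Trizol and read with a biotin label on Affymetrix arrays. The deposited values are linear probe set intensities, for which the submitters' processing notes name MAS5; MAS5 scales each array by 1 factor, and the values hold no detection calls. Its version and a genome build are not given in the sources used here. Sample titles gave the groups and numbers.

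Log2(signal + 16) was used with no further normalization. Of 34945 probe sets that name 1 gene, 22540 (64.5%) lay above the 40th percentile of their array on at least 9 of 18 arrays and were kept. A gene is represented by its kept probe set with the highest mean, giving 12793 genes. Group differences were tested two-sided with limma 3.58.1 (lmFit and eBayes, group only) in R 4.3.3 with Benjamini-Hochberg adjustment, and the code was tested on simulated data. Where Slc30a2 is given, the fit had no filter (18193 genes). Marker scores are mean log2 signals over listed genes.

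The genes, lists and tests were chosen with earlier results of these data known. All 10 genes were to be named, other listed genes where called, up to 4 per list for the last 3 lists, and the 3 genes nearest to each by correlation; 1 citrate gene is not reported here. Alternatives were quantile normalization, pseudocounts of 1 and 64, an intensity trend, a filter at the 60th percentile or none, arrays centred on the 75th percentile, array weights, the replicate block, the mean of probe sets, omission of probe sets that match several transcripts, spike level, actin ratio, marker scores and omission of arrays. Omission of 6 arrays and averaging tumours 6 and 8 were added after seeing the data. Promoters are from RefSeq (GRCm38.p6). Plots used matplotlib 3.10.9 and Python 3.11.15.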

Additional observations from a re-analysis of the deposited data

Results flagged for a closer look

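Among 32 groups of 9 arrays (16 probe sets in normal prostate and in tumours), 4 held 1 array whose gap to its nearest neighbour, as a share of the group's range, passed Dixon's 95% limit; chance gives about 1 in 20 groups. Mt2 was 13.61 in tumour 5, with the next tumour at 13.11. Slc39a1 was 10.71 on normal prostate 9, with the next normal array at 11.11. The dimmer probe set of Slc39a8 was 11.43 on normal prostate 9, with the next at 7.94. The dimmer probe set of Slc30a1 was 6.04 on normal prostate 3, with the next at 7.20.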

How the results depend on the processing

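Mt1, Mt2 and Slc30a1 were lower under all 20 alternatives and with each of the 18 arrays left out. With 1 array left out at a time their differences ran from -1.85 to -1.58, -1.19 to -0.93 and -0.96 to -0.81, the largest adjusted p being 0.00242, 0.0104 and 0.00263 (limma). Mt1 lost its call without probe sets that match several transcripts (-0.93, limma adjusted p = 0.0958), and all 3 lost theirs on arrays of dim spikes alone and with the prostate secretory score as a covariate, both of which called 0 members. The count of genes called was 3067, and it was 0 on arrays of dim spikes alone, 1634 with the actin ratio, 78 with the secretory score and 4867 without 6 arrays, a fit that called 8 members lower. Covariates for seminal vesicle and smooth muscle called 6 members lower, where 2181 of 12793 genes were lower. Array weights called 4 members lower, Slc30a5 (-0.45, limma adjusted p = 0.0454) being added, and 1 higher, Slc39a4 (1.25, limma adjusted p = 0.0416). With those weights 2003 of 12793 genes were lower and 1806 higher. Differences changed sign for Slc39a14 with the mean of probe sets (0.0325), for Slc30a4 and Slc39a14 on arrays of dim spikes (0.0233 and 0.0156), for Slc30a4 with the actin ratio (0.17) and for Slc39a4 without 6 arrays (-0.25). With the secretory score they changed sign for Slc30a4 (0.53), Slc30a5 (0.0046), Slc39a1 (0.24), Slc39a14 (0.34) and the dimmer Mt1 probe set (0.46). Among dim probe sets, the second of Slc39a8 changed sign with array weights (0.240) and bright spikes alone (0.148), and ran from -0.448 to 0.354 with 1 array left out. The Slc39a14 probe set at 0.42 changed sign with bright spikes alone (-0.00851) and without 6 arrays (-0.523), and that at 0.17, dim on all 18 arrays, did so with dim spikes alone (-0.0790), the actin ratio (-0.0873), the secretory score (-0.0821) and the seminal vesicle and muscle covariates (-0.0035), with which Slc30a2 changed sign too (-0.0869). None of these was called after a change of sign, and the causes were not tested. Same-numbered arrays deviated together in 1 of 9 pairs (correlation over 0.1, the highest 0.314). Such correlations cannot settle whether the number pairs samples. With the replicate block 2645 genes and 3 members were called, and Slc39a4 came close to a call (0.87, limma adjusted p = 0.0512). Dim probe sets limit Slc30a2 and the second probe sets.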
